A study of Homo sapiens with 7 samples.

Results

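The genes described here guide growing axons or hold neural cells together, and the question was where chromatin near them changed accessibility when PHF19 was silenced in a leukaemia line. Members were all regions in the pooled lists of changed accessible regions whose nearest gene has a symbol of 1 of 19 gene families. They are the ROBO, SLIT, SEMA, PLXN, EPH, UNC5, DCC, DSCAM, CNTN, NRXN, NLGN, LRRTM, NTNG, CSMD, ADGRB, ADGRL, TENM, CDH and PCDH families. The rule found 148 of 8815 listed regions (1.68%), nearest to 64 symbols of 17 families, and the DCC and NTNG families had none. Of the 64 symbols, 61 are protein-coding genes and 3 are antisense transcripts (EPHA1-AS1, EPHA5-AS1 and DSCAM-AS1). UNC50 entered through its spelling alone and encodes a membrane protein that is no netrin receptor.

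PHF19 was silenced in Kasumi-1 by lentiviral shRNA (3 libraries), and control Kasumi-1 cells had a scrambled shRNA (4 libraries; WT in another label field). All values come from this 1 line, which was derived from acute myeloid leukaemia and has the RUNX1-RUNX1T1 fusion. Both groups carry a vector with a green fluorescent protein and a puromycin resistance gene, and both had puromycin at 2 µg/ml from 48 hours after the virus for at least 24 hours. Each library came from 10000 cells by ATAC-seq, which reads out open chromatin through the places where a transposase can cut. The number of shRNAs used is not given in the sources used here, nor is it stated whether libraries of a group were separate cultures, so the authors' p-values may reflect technical spread only.

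Each region has 1 mean normalised read count per group, a log2 fold (knockdown over control) and a false discovery rate (FDR), all from the authors' deposited table. The files give no value per library, so no SD can be attached to a region, and read depth is unknown. The log2 fold is pulled towards 0 relative to the ratio of the group means. Regions that did not reach the authors' threshold are not listed, so a gene without a listed region is not shown to be unchanged. Coordinates are as deposited and were read as hg19. A region is called a promoter region within 3 kb of an annotated transcription start site, and distal otherwise. The nearest gene is an annotation by distance alone, which in gene-poor stretches reaches over 1000 kb.

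Axon guidance works through secreted or membrane-bound cues and their receptors on the growing tip of the axon. Slits bind Robo receptors and repel, semaphorins bind plexins, ephrins bind Eph receptor tyrosine kinases, and netrins bind DCC and UNC5 receptors. Neural adhesion uses cadherins and protocadherins, contactins of the immunoglobulin superfamily, teneurins with latrophilins (the ADGRL receptors), and neurexins with neuroligins or LRRTM proteins across the synapse. Many of these genes span long stretches of DNA and lie in gene-poor surroundings. PHF19 is a Polycomb-like protein of Polycomb repressive complex 2 (PRC2), which methylates lysine 27 of histone H3, and Polycomb-like proteins bind CpG-rich DNA.

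Accessibility was higher in the knockdown at 146 member regions and lower at 2. Across all regions the authors tested, 16.4% were listed as increased and 0.380% as decreased. How many tested regions lay near member genes is unknown here, so no share of tested member regions can be given. Per gene, 60 of 189 protein-coding members (31.7%) were the nearest gene of an increased region, against 25.2% of all 20052 protein-coding genes. A decreased region was listed for 2 of the 189, CDH23 and PCDH7, against 0.818% of all protein-coding genes. No test was made of these shares or of any other count below, because the members were chosen with earlier results of these data known.

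The share of genes differed between promoter and distal regions. An increased promoter region was listed for 13 of the 189 genes (6.88%), against 17.5% of all protein-coding genes. An increased distal region was listed for 53 of the 189 (28.0%), against 11.3% of all protein-coding genes. Counted by region, 131 of the 146 increased member regions were distal (89.7%, 95% Clopper-Pearson interval 83.6 to 94.1%, counting error only), against 49.9% of all increased regions. The distal member regions were 80 intergenic ones and 51 in exons or introns, and they lay upstream of the nearest start 70 times and downstream 61 times. Of the 51, 46 lay in the member gene itself, 45 of them in its introns. The other 5 lay in another annotated transcript.

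**Figure D1:**
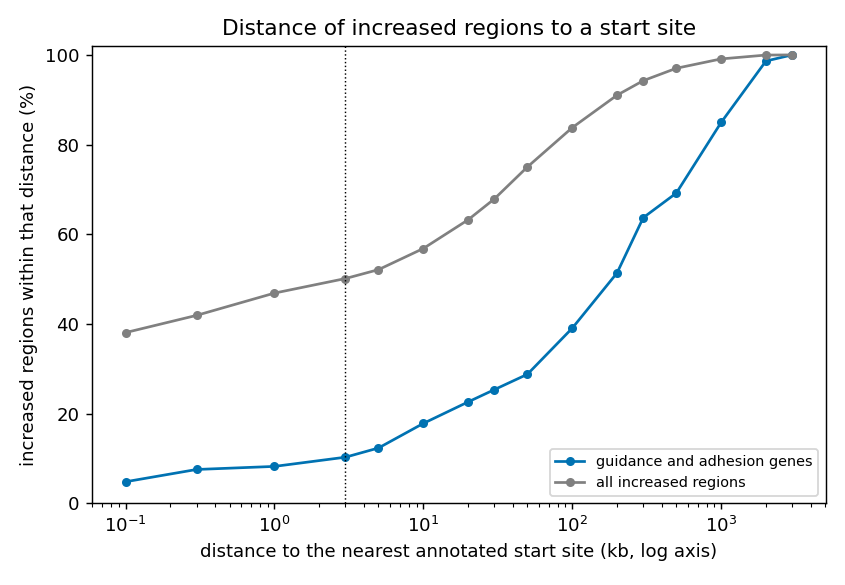
Cumulative share of increased regions (vertical axis, %) within a given distance of the nearest annotated start site (horizontal axis, kb, log scale), for the 146 regions of guidance and adhesion genes and for all 8615 increased regions; the dotted line marks 3 kb. The member curve lies below the other up to 2000 kb, and both reach 100% at 3000 kb. Within 100 kb lay 39.0% of member regions and 83.8% of all increased regions.

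The median distance to a start site was 187 kb for increased member regions and 2.90 kb for all increased regions. A distance over 100 kb was found for 89 member regions (61.0%), against 16.2% of all increased regions. For distances over 1000 kb the counts were 22 members (15.1%) and 77 of all increased regions (0.894%). The transcripts assigned to member regions were long as well, with a median of 188 kb, against 35.0 kb for all increased regions. Members thus make up 22 of the 77 increased regions that lie farther than 1000 kb from a start, which is a fact of position and does not show that the region acts on the named gene.

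The size of the increase was set beside that of all increased regions of the same class. Distal member regions had a median log2 fold of 1.08 (order-statistic 95% interval 1.02 to 1.13), and the median of all increased distal regions, 1.02, lay inside that interval. Promoter member regions had a median log2 fold of 1.12 (0.78 to 1.29, 15 regions), and that of all increased promoter regions, 0.89, lay inside it too. At 100 to 500 kb from a start the median was 1.15 for 44 member regions and 1.06 for all increased regions. Beyond 500 kb it was 1.04 for 45 member regions, against 1.09 for all increased regions. Within members, the distal and promoter medians lay inside each other's intervals.

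Reads were few at distal regions of both sets. Distal member regions had a median of 15.3 reads in knockdown cells and 4.51 in control cells, and promoter member regions had 32.5 in knockdown cells and 13.2 in control cells. The medians for all increased distal regions were 16.7 reads in knockdown cells and 5.41 in control cells. For all increased promoter regions they were 47.9 in knockdown cells and 22.9 in control cells, above those of promoter member regions. The mean over all libraries was under 10 reads at 57.3% of distal member regions, against 48.4% of all increased distal regions. For promoter regions these shares were 20% of members and 5.58% of all increased ones. Where reads are few only large folds reach the threshold, so medians of listed regions with different read levels are no measure of effect size. The control mean lay at the floor of 1 read at 2 member regions, nearest to PCDH10 and SEMA3D.

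**Figure D2:**
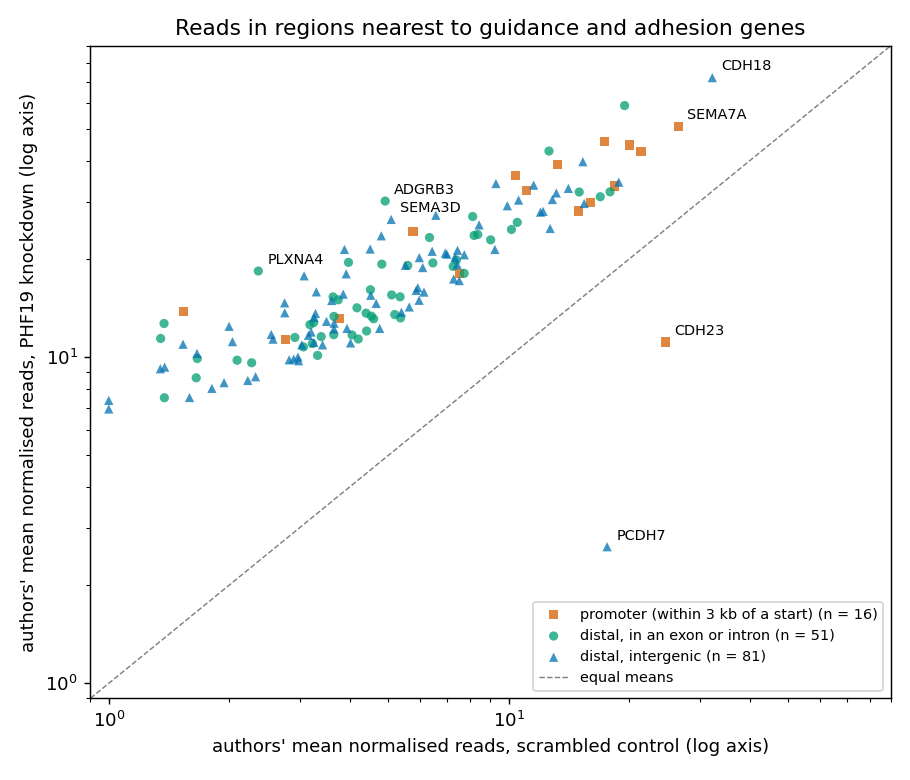
Authors' mean normalised reads per region in the PHF19 knockdown (vertical axis) and in the scrambled control (horizontal axis), both on log scales, for the 148 member regions by class. All points but the CDH23 region and 1 of the 7 PCDH7 regions lie above the line of equal means; promoter regions lie mostly at the upper right, and a CDH18 intergenic region has the highest mean in the knockdown (71.9 reads).

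Start site sequences of genes with an increased promoter region are shown here, since PRC2 with a Polycomb-like subunit is known for CpG-rich start sites. They are windows around the RefSeq start, not the changed regions themselves. By the deposited distances, the EPHA3 and PCDH9 regions cover a start, the CNTNAP2 region ends 0.172 kb upstream of one, and the EPHA5-AS1 region begins 0.289 kb downstream, beyond its window. The 4 windows are those with the largest promoter folds among genes for which RefSeq (build GRCh38.p14) gives 1 start and a gene length within 1% of the deposited transcript. Each runs from 250 bases before to 50 bases after the RefSeq start, 5′ to 3′ on the gene's strand, with CpG dinucleotides in capitals. The RefSeq EPHB6 gene is longer than the deposited transcript, so its window is not printed. Coordinates of these windows are in GRCh38.p14 and are not comparable with those of the regions.
EPHA5-AS1 (chr4:65669711-65670010, plus strand): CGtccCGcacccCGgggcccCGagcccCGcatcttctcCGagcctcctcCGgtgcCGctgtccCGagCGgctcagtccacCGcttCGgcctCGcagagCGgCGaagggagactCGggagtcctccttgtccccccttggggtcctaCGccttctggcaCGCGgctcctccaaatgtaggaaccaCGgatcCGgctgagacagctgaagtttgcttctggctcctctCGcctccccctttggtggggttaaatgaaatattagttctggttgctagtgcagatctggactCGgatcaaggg
EPHA3 (chr3:89107371-89107670, plus strand): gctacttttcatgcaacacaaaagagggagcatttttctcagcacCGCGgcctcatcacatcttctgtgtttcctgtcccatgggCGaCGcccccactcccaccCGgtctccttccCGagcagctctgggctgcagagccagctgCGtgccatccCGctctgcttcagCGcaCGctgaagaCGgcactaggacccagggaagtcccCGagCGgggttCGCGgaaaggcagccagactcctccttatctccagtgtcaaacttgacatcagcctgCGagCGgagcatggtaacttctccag
CNTNAP2 (chr7:146116551-146116850, plus strand): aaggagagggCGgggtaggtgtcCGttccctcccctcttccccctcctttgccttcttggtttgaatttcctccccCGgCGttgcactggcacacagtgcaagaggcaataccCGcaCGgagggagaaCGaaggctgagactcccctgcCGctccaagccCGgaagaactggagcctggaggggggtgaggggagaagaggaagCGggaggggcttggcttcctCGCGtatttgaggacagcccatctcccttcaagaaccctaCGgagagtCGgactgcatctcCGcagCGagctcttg
PCDH9 (chr13:67230287-67230586, minus strand): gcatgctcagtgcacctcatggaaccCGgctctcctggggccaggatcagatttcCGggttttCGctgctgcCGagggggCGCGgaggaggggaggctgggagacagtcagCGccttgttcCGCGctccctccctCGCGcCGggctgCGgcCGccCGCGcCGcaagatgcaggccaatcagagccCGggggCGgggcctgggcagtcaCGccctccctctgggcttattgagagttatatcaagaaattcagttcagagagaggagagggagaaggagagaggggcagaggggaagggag

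These windows held 23 (EPHA5-AS1), 17 (EPHA3), 16 (CNTNAP2) and 20 CpGs (PCDH9). Taking for each gene its window with the most CpGs, the median was 23 CpGs for the 13 of 14 member genes with an increased promoter region that are in the table. It was 15 for the 143 of 176 other protein-coding members in it, 30 for all genes with an increased promoter region and 24 for all protein-coding genes. The motifs were searched on both strands in these windows, 1 per gene, and in all 35116 windows of the table. GGGCGG (the GC box) was in 69.2% of the 13 member windows, 76.1% of those of all genes with an increased promoter region, 62.4% of those of all protein-coding genes and 45.0% of all windows. For CCGGAA (an ETS core) the 4 shares, in the same order, were 30.8%, 35.5%, 23.8% and 17.2%. For CCAAT they were 38.5%, 34.3%, 35.3% and 34.6%. TGTGGT (a RUNX core) was in 1 of the 13 (7.69%), and its other shares were 8.69%, 10.3% and 13.1%. TGANTCA (AP-1), CACGTG (an E-box) and TGACGT (a CRE core) were in none of the 13. Among all genes with an increased promoter region they were in 3.30%, 11.5% and 13.7%. The shares were 5.31%, 8.97% and 9.62% among all protein-coding genes, and 7.71%, 7.26% and 7.98% among all windows. With 13 windows, 1 window more or less moves a share by 7.69 percentage points. The 14 member genes with an increased promoter region include UNC50 and the antisense transcript EPHA5-AS1. Of the 4 windows printed, CNTNAP2 held a GC box and an ETS core, the ETS core nearer to the start than the changed region reaches, PCDH9 held 2 GC boxes, an ETS core and a CCAAT box, and the EPHA5-AS1 and EPHA3 windows held none of these motifs.

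Among guidance ligands, 9 of 23 protein-coding SLIT and SEMA genes had an increased region (39.1%, against 25.2% of all protein-coding genes). Of their 21 regions, 19 were distal (90.5%, against 49.9% of all increased regions). SLIT2, a secreted repellent, had both of its regions upstream. The one 5.16 kb from the start had 11.2 reads in knockdown cells and 2.04 in control cells (log2 fold 1.30, FDR 0.0062). The one 260 kb away had 14.7 reads in knockdown cells and 2.75 in control cells (log2 fold 1.44, FDR 0.00207). SLIT1 and SLIT3 had no listed region. SEMA3D, a secreted class 3 semaphorin, had 6 intergenic regions, all upstream and between 285 and 703 kb from the start, and no region closer. Its largest increase was at the nearest of these (chr7:85101032-85101432), with 26.4 reads in knockdown cells and 5.08 in control cells (log2 fold 1.79, FDR 1.67e-05). The other 5 SEMA3D regions ranged from 0.94 to 1.43.

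SEMA3A, the repellent that collapses growth cones, had an intergenic region with 27.2 reads in knockdown cells and 6.57 in control cells, 247 kb from the start (log2 fold 1.56, FDR 0.000123), and a smaller increase 258 kb away (0.87). SEMA6D, a transmembrane semaphorin, had 4 regions, all in its own introns. The largest lay in intron 3 of 19 with 42.9 reads in knockdown cells and 12.6 in control cells (log2 fold 1.44, FDR 3.34e-05). SEMA6A had 3 distal regions (log2 folds 0.99 to 1.27), SEMA3E 1 (1.23) and SEMA5A 1 in an intron (0.72). The only promoter regions of the family were those of SEMA4B and SEMA7A, semaphorins that also act in immune cells. SEMA7A had 51.0 reads in knockdown cells and 26.5 in control cells (log2 fold 0.78, FDR 0.0147), and SEMA4B had 29.7 in knockdown cells and 16.0 in control cells (0.73, FDR 0.0424). Both regions covered the start site and both folds were below the family median of 1.08.

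Guidance receptors had an increased region at 12 of 34 protein-coding genes (35.3%, against 25.2% of all protein-coding genes). UNC50 is 1 of these 12. The role had 34 regions, those of UNC50 and of the antisense transcripts EPHA1-AS1 and EPHA5-AS1 included. Of the 34 regions, 7 were promoter regions and 27 were distal (79.4%, against 49.9% of all increased regions). The 7 include those of UNC50 and EPHA5-AS1. ROBO1, a Slit receptor, had 5 regions, and the one with the largest fold was intergenic, 599 kb upstream, with 21.4 reads in knockdown cells and 3.88 in control cells (log2 fold 1.70, FDR 0.000129). Its promoter region had 18.0 reads in knockdown cells and 7.54 in control cells (0.86, FDR 0.0417). ROBO2 had 3 regions in its introns (0.99, 1.29 and 1.33). ROBO3, which tempers Slit responses before axons cross the midline, had a promoter region of a short transcript (0.73). ROBO4, the endothelial member, had none listed.

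PLXNA4, a plexin that partners neuropilins in class 3 semaphorin signalling, had 6 increased regions, 5 in its introns and 1 intergenic. The intron 3 region 143 kb from the start had 18.4 reads in knockdown cells and 2.37 in control cells (log2 fold 1.80, FDR 0.00018). A second region 1720 bases from it had 32.1 reads in knockdown cells and 15.0 in control cells and a fold of 0.90 (FDR 0.0122), so neighbouring regions of 1 intron differed in their values. PLXNC1, a receptor of SEMA7A, had an exonic (1.11) and an intronic region (0.70). The other 7 plexins had no listed region.

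EPHA3, an ephrin-A receptor tyrosine kinase, had a region over its start site with 36.0 reads in knockdown cells and 10.4 in control cells (log2 fold 1.44, FDR 5.39e-05). Its other 4 regions were distal, between 8.16 and 1075 kb from a start, with folds of 0.77 to 1.23. The EPHA5-AS1 promoter region had 24.3 reads in knockdown cells and 5.76 in control cells (1.46, FDR 0.000513). In RefSeq this antisense transcript begins within EPHA5, near starts of that gene on the other strand, and the assay has no strand, so the region cannot be assigned to one of them. EPHB6, an Eph receptor whose kinase domain is inactive and which T cells also express, had 2 promoter regions, 376 bases apart. The region over the start had 32.5 reads in knockdown cells and 11.1 in control cells (log2 fold 1.23, FDR 0.000763). The other had 44.7 reads in knockdown cells and 20 in control cells (0.97, FDR 0.00237). EPHA7 had 4 intergenic regions (0.88 to 1.16), and EPHA4 (0.97) and EPHA6 (1.04) had 1 each. The EPHA1-AS1 region (1.13) lay in exon 12 of 18 of EPHA1 itself.

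Among netrin receptors, UNC5D had 1 intergenic region with 13.2 reads in knockdown cells and 3.26 in control cells, 417 kb from a start (log2 fold 1.21, FDR 0.00831). DCC, UNC5A, UNC5B and UNC5C had none listed. The UNC50 promoter region (28.1 reads in knockdown cells and 14.9 in control cells, 0.74) belongs to no netrin receptor.

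Contactins and contactin-associated proteins had an increased region at 9 of 13 genes (69.2%, against 25.2% of all protein-coding genes). CNTNAP2, which clusters potassium channels along myelinated axons, had 1 promoter and 4 intronic regions. The promoter region had 39.0 reads in knockdown cells and 13.2 in control cells (log2 fold 1.29, FDR 0.000236). The largest increase was in intron 20 of 23, at 12.7 reads in knockdown cells and 1.37 in control cells (1.64, FDR 0.000823), and 3 of the 4 intronic regions lay in that intron. CNTNAP5 had a promoter region (1.12) and an intronic one (0.95), and CNTNAP4 an intergenic one (0.88). CNTN1, CNTN4, CNTN5 and CNTN6 had 2 regions each and CNTN3 had 1, all distal, with folds of 0.87 to 1.25. The CNTNAP3B region (1.11) lies near genes with near-identical copies on chromosome 9, so the origin of its reads is uncertain. The DSCAM-AS1 region (0.89) lay in intron 3 of 32 of DSCAM, an adhesion molecule of the immunoglobulin superfamily.

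Synapse organisers had an increased region at 7 of 14 genes (50%, against 25.2% of all protein-coding genes). Of their 11 regions, 9 were distal (81.8%, against 49.9% of all increased regions). NRXN3, a presynaptic neurexin, had an intron 14 region at 19.5 reads in knockdown cells and 3.97 in control cells (1.58, FDR 0.000429). NLGN1, a postsynaptic partner of neurexins, had a region 2.62 kb upstream of its start with 42.7 reads in knockdown cells and 21.4 in control cells (0.86, FDR 0.00862). NLGN3 (0.70) and NLGN4X (1.04) had 1 intergenic region each, and the NLGN median of 0.86 was the lowest of the families with at least 3 regions. LRRTM3 (1.06) and LRRTM4 (1.04), postsynaptic neurexin ligands, had 1 intronic region each.

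**Figure D3:**
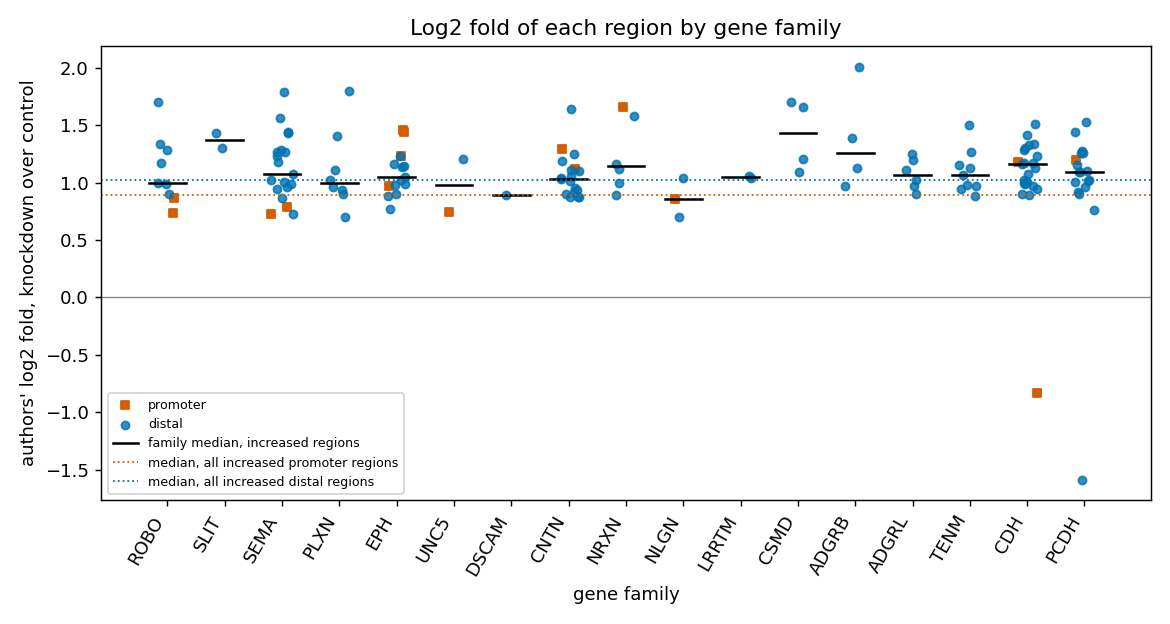
Authors' log2 fold (knockdown over control, vertical axis) of each of the 148 member regions by gene family (horizontal axis); squares are promoter regions, circles distal ones, black bars the family median of increased regions and dotted lines the medians of all increased promoter and distal regions. Family medians lie between 0.86 (NLGN) and 1.43 (CSMD) for families with at least 3 regions, and families overlap.

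Teneurins, latrophilins and their relatives had an increased region at 7 of 11 genes (63.6%, against 25.2% of all protein-coding genes). None of their 19 regions was a promoter region, against 50.1% of all increased regions. ADGRB3, a brain adhesion receptor of the BAI family that binds complement-like C1q proteins, had the largest fold of all members. That region (chr6:68597847-68598247) had 30.1 reads in knockdown cells and 4.91 in control cells (log2 fold 2.01, FDR 1.9e-06). A second region 615 bases away had 59.1 reads in knockdown cells and 19.5 in control cells (1.39, FDR 4.39e-06). Both lay 746 to 747 kb upstream of ADGRB3, in exons 2 and 1 of a 3-exon transcript to which the deposited annotation gives no gene. The annotation to ADGRB3 thus rests on distance alone.

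TENM2, a teneurin that binds latrophilins across the synapse, had 5 distal regions, 3 of them 1654 to 1787 kb upstream. The largest had 34.1 reads in knockdown cells and 9.29 in control cells (log2 fold 1.5, FDR 6.55e-05). TENM4 had 3 regions (0.89 to 1.12) and TENM3 had 1 (1.15). ADGRL3 had 4 intergenic regions (0.90 to 1.19), the nearest 622 kb from a start, and ADGRL2 had 1 (1.02). ADGRL4, which is known from blood vessels more than from neurons, had 1 region with 20.2 reads in knockdown cells and 5.98 in control cells, 1053 kb upstream (1.25, FDR 0.00253). CSMD3, a large membrane protein with CUB and sushi domains, had 4 distal regions. Their folds were 1.09, 1.20, 1.66 and 1.71, the 2 largest intergenic, with control means of 3.08 to 4.8 reads and knockdown means of 12.8 to 23.6.

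Cadherins had an increased region at 8 of 23 genes (34.8%, against 25.2% of all protein-coding genes). Of their 21 increased regions, 20 were distal (95.2%, against 49.9% of all increased regions). CDH18, a classical cadherin of the nervous system, had 7 increased regions, the most of any member. Its intergenic region 1187 kb from the start had the most reads of all members, 71.9 in knockdown cells and 32.3 in control cells (log2 fold 1.0, FDR 0.0014). Its promoter region, 2.93 kb downstream of the start, had 11.3 reads in knockdown cells and 2.76 in control cells (1.18). CDH6 had 6 distal regions, the largest 59.8 kb upstream with 18.0 reads in knockdown cells and 3.92 in control cells (1.51, FDR 0.000664). CDH8 had 3 regions (0.90 to 1.28), and CDH2, CDH3, CDH7, CDH9 and CDH12 had 1 each (0.89 to 1.33). CDH2 and CDH3 encode N-cadherin and P-cadherin. CDH1 and CDH5, the epithelial and endothelial cadherins, had none listed.

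Protocadherins divided by their position in the genome. Of the 13 that lie outside the PCDHA, PCDHB and PCDHG clusters, 6 had an increased region, against 1 of the 53 clustered genes (PCDHB1, 9.89 kb upstream, 1.09). Clustered genes lie close together and share surrounding DNA, and each region is annotated to 1 gene only. Whether this bears on their count was not tested. Without the clustered genes, 59 of 136 protein-coding members (43.4%) had an increased region, against 31.7% with them and 25.2% of all protein-coding genes. This group was set apart with the low count of the clustered genes known. PCDH9 had a region over its start with 45.9 reads in knockdown cells and 17.4 in control cells (log2 fold 1.19, FDR 0.000242). PCDH10 had 3 intergenic regions, the largest with 21.5 reads in knockdown cells and 4.5 in control cells, 470 kb from a start (1.53, FDR 0.000439). PCDH15 (1.44), PCDH18 (1.26 and 1.27) and PCDH20 (1.0 to 1.15) had distal regions only.

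**Figure D4:**
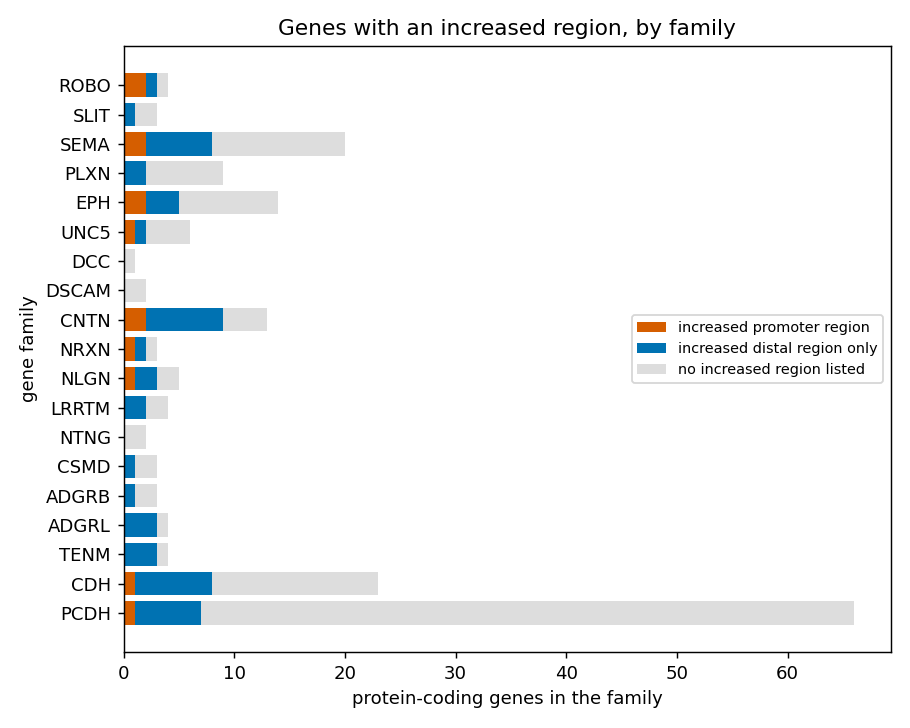
Number of protein-coding genes in each family (horizontal axis) with an increased promoter region, with increased distal regions only, and with no increased region listed; families run down the page by role. The PCDH bar is the longest, with 66 genes of which 7 had an increased region; the DCC, DSCAM and NTNG bars hold none.

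Both decreased regions belonged to the cadherin superfamily. The PCDH7 region (chr4:31615556-31615956) was intergenic, 894 kb downstream of the start, with 2.62 reads in knockdown cells and 17.6 in control cells (log2 fold −1.59, FDR 0.000961). PCDH7 also had 6 increased intergenic regions (0.76 to 1.26), the closest of them 371 kb from the decreased one. The CDH23 region (chr10:73571693-73572093) lay 53 bases inside the start of a 4.07 kb transcript annotated to CDH23, a cadherin of hair cell tip links. It had 11.1 reads in knockdown cells and 24.6 in control cells (−0.83, FDR 0.0392), and no increased region was listed for CDH23.

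**Figure D5:**
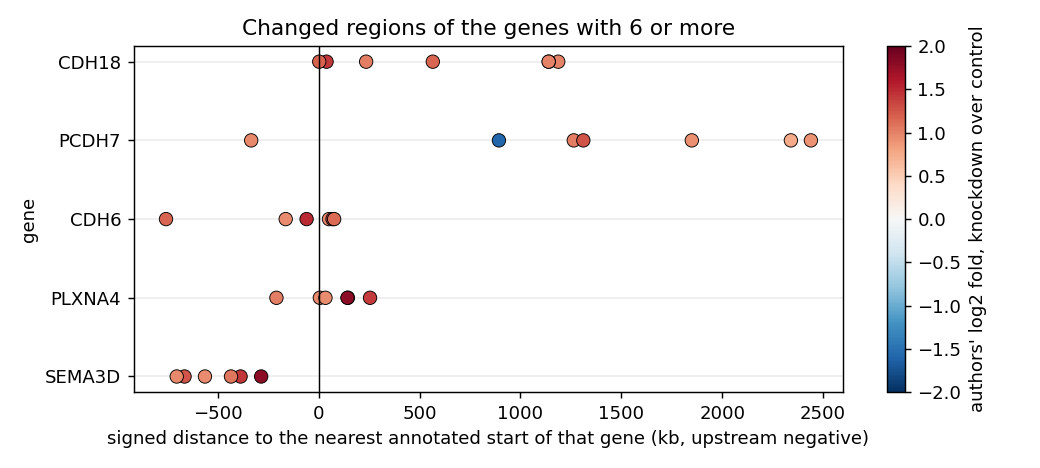
Signed distance of each changed region from the nearest annotated start of its gene (horizontal axis, kb, upstream negative) for the 5 genes with 6 or more changed regions (vertical axis), coloured by the authors' log2 fold, knockdown over control. A gene can have several annotated starts; CDH18 and PCDH7 have 7 regions each, and the single decreased region is the PCDH7 one at 894 kb.

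Increased regions were counted per gene as well. Of the 63 member symbols with an increased region, 21 (33.3%) had 3 or more of them, against 10.6% of all 5788 genes with an increased region. CNTNAP2, EPHA3, ROBO1, CNTNAP5 and CDH18 were among those that had both a promoter and a distal increased region. In 6 places a pair of member regions lay within 5 kb of each other, at ADGRB3, CDH18, CNTNAP2, EPHB6, PLXNA4 and PLXNC1. All 6 pairs were increased on both sides, and 97.7% of all listed regions were increased.

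Member regions were unevenly placed over chromosomes. Members were picked by gene symbol, so their placement depends on where those genes lie. No share of all member genes per chromosome was computed. Chromosome 5 held 25 (17.1%), against 8.95% of all increased regions, chromosome 4 held 19 (13.0% against 6.71%) and chromosome 3 held 20 (13.7% against 10.1%). Chromosome 7, which holds more increased regions than any other, had 23 member regions (15.8% against 12.1%). No increased member region lay on chromosomes 17, 19, 20 or 22.

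Other genes of the same pathways were taken from 3 lists, to be read against all protein-coding genes, of which 25.2% had an increased region, 17.5% an increased promoter region and 0.818% a decreased one. Of all increased regions, 49.9% were distal. Of 31 further ligands, co-receptors and receptors of guidance, 13 had an increased region (41.9%) and 1 a decreased one, and 24 of their 29 increased regions were distal (82.8%). The largest folds were at the adhesion molecule CHL1 (1.49), the Hedgehog co-receptor CDON (1.35) and the netrin receptor NEO1. The NEO1 region covered its start, with 53.8 reads in knockdown cells and 18.0 in control cells (1.33, FDR 6.51e-05). The decreased region was in LINGO1, a component of the Nogo receptor complex, at the 1-read floor in knockdown cells and at 7.01 reads in control cells (−0.91, FDR 0.0338).

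Of 48 further adhesion and synapse genes, 23 had an increased region (47.9%, against 25.2% of all protein-coding genes). Of their 44 regions, 38 were distal (86.4%, against 49.9% of all increased regions). SLITRK1 (1.72), NCAM1 (1.57) and ALCAM (1.43) had the largest folds. Of 37 intracellular effectors, 17 had an increased region (45.9%), and 22 of their 37 regions were distal (59.5%). An increased promoter region was listed for 11 of these effectors (29.7%, against 17.5% of all protein-coding genes). The promoter counts of the other lists were 4 of 31 guidance genes (12.9%) and 6 of 48 adhesion and synapse genes (12.5%). RHOA, the GTPase that drives growth cone collapse, had 34.0 reads in knockdown cells and 9.89 in control cells at a promoter region (1.4). The next were intronic or exonic regions of the p120 catenin gene CTNND1 (1.25) and the exchange factor TRIO (1.21). Median folds were 1.0 for the first list, 1.04 for the second and 0.87 for the effectors, and these lists differ in their distal share. The medians of all increased regions were 1.02 for distal and 0.89 for promoter ones.

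The lists of changed regions do not measure expression, so the labelled cell type could not be checked by marker levels. An increased region was listed for 25.2% of all protein-coding genes. KIT and CD34, markers of myeloid progenitors, had 2 increased regions each and RUNX1T1 had 3, while CD33 and MPO had none listed. Of 6 neuronal identity genes, MAP2 had 1 increased region and NEUROD1 2, and RBFOX3, TUBB3, SNAP25 and SYP had none. Their part in the results above was not tested.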

How the data were processed

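ATAC-seq libraries of Kasumi-1 cells (3 with PHF19 knockdown, 4 with scrambled shRNA) were reduced by the authors to a list of increased and a list of decreased regions. Per the file headers, each region carries log2 mean normalised read counts over all libraries and per group, an FDR with its p-value and a log2 fold (knockdown over control), all deposited by the authors, and other annotation values such as distance to a start site, in base pairs. Per the submitters' processing notes, the tools were MACS2 2.2.6, deepTools 1.5.12, Bowtie2 2.4.1 and Picard 2.2.4, with no roles stated. No normalisation, test, merging of regions or transposase shift of reads is given in the sources used here, and the balance of increases and decreases depends on the normalisation.

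The group columns carry short codes. The higher code in the increased list was taken as the knockdown, and the overall mean weighted that column by a median of 0.429 (3 of 7 libraries). The notes name hg38, but no member's deposited gene start or end equalled that of GRCh38.p14, so coordinates were read as hg19. The 52675 tested regions follow from FDR, rank and p-value. RefSeq tables of GRCh38.p14 gave gene names, gene types and promoter sequences, and all 148 members matched. Log2 means were turned into reads, and counts, shares and medians were computed with scipy 1.17.1, numpy 2.4.6 and pandas 2.3.3 in Python 3.11.15, and figures drawn with matplotlib 3.10.9. Clopper-Pearson intervals and order-statistic intervals of medians cover counting error only, and neighbouring regions are not independent. The recovery of the number of tested regions and the median interval were tested on simulated data.

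The members, lists, motifs and alternatives were chosen with earlier results of these data known. Members were named by the largest fold in each family, every decrease, the 10 largest folds and 5 highest read counts at promoter and at distal regions, the 10 genes with the most regions, and genes with both kinds; others complete a family. Results of 1 member gene are not reported here, though its regions are in all counts.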

Additional observations from a re-analysis of the deposited data

How the results depend on the processing

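The 6 values that carry the account (counts of increased member regions and of the 63 symbols they belong to, the distal share, and median log2 folds of all, distal and promoter member regions) were recomputed under 10 alternatives. All 6 are taken over regions already listed as increased, so none could change direction. Of 60 values, 45 stayed within 1.5 times the count or inside the interval. Some could not move, such as the counts under a 1 kb promoter window or the difference of the group means. With an FDR of at most 0.01, 67 regions (45.9%, against 45.9% of all increased regions) and 41 symbols remained. Their median log2 fold was 1.27 for all and 1.27 for distal regions. Where the log2 fold had to reach 1, 94 regions remained (64.4%, against 43.4% of all increased regions). Their medians were 1.19 for all and 1.18 for distal regions. With a mean of at least 10 reads over all libraries, 68 regions remained and the distal share was 82.4%. The share of all increased regions with that many reads was not computed, so the unfiltered 49.9% is no comparison for it. Within 100 kb of a start site, 57 regions and 40 symbols remained and the distal share was 73.7%. Of all 7217 increased regions within 100 kb, 2899 were distal. These settings keep fewer regions by construction. The unshrunken difference of the group means gave medians of 1.74 for all, 1.76 for distal and 1.4 for promoter regions. A promoter window of 1 kb, protein-coding symbols only, leaving out chromosome 7, leaving out CDH and PCDH genes, and leaving out UNC50 and the antisense transcripts (chosen after seeing the data) moved none of the 6 values beyond those limits. The promoter median still varied inside its wide interval (0.78 to 1.29, 15 regions). It was 0.99 without chromosome 7 and 0.97 without CDH and PCDH genes, below the distal medians of 1.08 and 1.06. With at least 10 reads it was 0.92, against 1.10 for distal regions. Where the log2 fold had to reach 1 it was 1.26, against 1.18, so the order of these medians depended on the setting. No paired analysis was possible because the files hold group means and no value per library, and for the same reason no library was left out. Read depth per library is unknown, and 53.4% of increased member regions had a mean under 10 reads, against 26.9% of all increased regions.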
